A study of Mus musculus with 6 samples.

Results

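Plet1, Muc15, Muc1 and Scara3 encode proteins that epithelial cells carry in or on their membranes, and they were chosen by gene symbol for the platform annotation's probe sets. The 4 genes are read by 6 probe sets, out of 18193 genes that the annotation names singly in this series. RNA came from mouse otic vesicles, the epithelial sacs that become the inner ears, dissected at embryonic day 11.5. All samples had 30 min of dispase treatment and 300 ng of total RNA each. The Mest-KO group had the transcription factor gene Tbx1 deleted by T-Cre, which recombines in early mesoderm, and the control group was heterozygous for the conditional deletion and carried T-Cre too. There were 3 arrays per group, with both ears of 3 pooled embryos of a single genotype on each. The design removes Tbx1 from tissue next to the vesicle, so it asks how the vesicle differs when the mesoderm lacks that gene.

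Membrane mucins such as Muc1 and Muc15 are long, heavily O-glycosylated proteins that stand out from the cell surface, where they keep it hydrated and hold other cells and particles at a distance. Plet1, named for its expression in placenta, is a surface glycoprotein used to mark progenitor cells in several epithelia, including thymus and hair follicle. Scara3 is a membrane protein related to the class A scavenger receptors, and it is known as a gene that answers oxidative stress and limits its damage.

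Expression of 3 of the 4 genes was lower in Mest-KO. The values in the next paragraphs are a description and carry no test, since the group was proposed with this same comparison in view: Plet1, Muc15 and Scara3 belonged to the 13 genes that limma called with a variance prior following expression level, at an adjusted p under 0.05. That was 0.104% of the 12462 genes tested, and 12 of the 13 were lower in Mest-KO (0.0963%). The count was 6 without control replicate 1 and 7 without control replicate 2. Without such a prior limma called 0 genes (0%), with 641 genes at an unadjusted p under 0.05 and a smallest adjusted p of 0.0897. Intensities are those deposited, on a linear scale. Differences are Mest-KO minus control on the quantile-normalized log2 scale, with n = 3 arrays per group. Standard errors of the members come from limma fitted over all probe sets, and those of listed genes from the fit over the genes tested, which gives smaller ones (0.137 in place of 0.163 for Plet1). In RNA from whole vesicles, fewer cells of a type and less RNA per cell cannot be told apart.

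RefSeq promoter windows of build GRCm38.p6, 250 bases before to 50 after the start of transcription, were matched for 2 of the 4 members, Plet1 and Muc1. Both are shown, and whether a motif has a part in the level of either gene was not tested. Capitals mark matches, on either strand, to 4 motifs searched. These were TATAAA for the TATA box, GGTGTGA for T-box factors, AGATAA for GATA factors and AACCNGTT for grainyhead-like factors. Muc15 and Scara3 were not matched. The Plet1 window lies at chr9:50494275-50494574 and the Muc1 window at chr3:89228806-89229105, both on the plus strand.
Plet1: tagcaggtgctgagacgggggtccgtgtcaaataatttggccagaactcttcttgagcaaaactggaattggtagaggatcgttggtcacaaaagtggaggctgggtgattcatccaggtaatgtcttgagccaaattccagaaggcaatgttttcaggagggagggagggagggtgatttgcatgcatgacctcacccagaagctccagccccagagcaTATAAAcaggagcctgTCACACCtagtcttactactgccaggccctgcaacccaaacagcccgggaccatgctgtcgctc
Muc1: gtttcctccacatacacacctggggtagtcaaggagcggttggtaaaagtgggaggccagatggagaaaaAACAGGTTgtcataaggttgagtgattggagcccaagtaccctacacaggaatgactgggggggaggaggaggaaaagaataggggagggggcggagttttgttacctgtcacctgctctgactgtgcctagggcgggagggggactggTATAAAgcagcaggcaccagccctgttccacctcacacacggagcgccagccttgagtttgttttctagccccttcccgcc

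Both windows held a TATA box on the strand of the gene, starting 30 bases upstream of the start in Plet1 and 31 bases upstream in Muc1. Of all 32851 windows in the table, 13.6% held that motif on either strand. Between the TATA box and the start, Plet1 held the T-box motif on the opposite strand (TCACACC), from 14 to 8 bases upstream, and 3.98% of all windows held it. The Muc1 window held no match to that motif. Muc1 held the grainyhead-like motif on the opposite strand (AACAGGTT), from 180 to 173 bases upstream, a motif found in 2.09% of all windows. The GATA motif, present in 11.2% of windows, was in neither. The base composition of both windows was close to the median window, with 52.3% G and C in Plet1 and 55.7% in Muc1 against 52.7%. No motif overlapped another, and a match is a run of letters and not a measured binding site.

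Plet1 was read by 3 probe sets, of which the brightest (1423933_a_at) gave intensities of 1008, 812 and 863 on the control arrays. On the Mest-KO arrays it gave 290, 366 and 380. The highest Mest-KO array thus stayed below the lowest control array. The group means were 894 ± 102 (SD, n = 3) in control and 345 ± 48.8 (SD, n = 3) in Mest-KO. The log2 difference was -1.40 (SE 0.163), which leaves Mest-KO at 37.9% of control, 2.64-fold lower with a 95% interval from 1.98 to 3.52.

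The second probe set of Plet1 (1454254_s_at), whose suffix in the Affymetrix naming scheme stands for probes that can match more than one transcript, gave the same picture at a lower intensity. It read 311, 223 and 208 in control and 71.0, 110 and 131 in Mest-KO. The groups did not overlap here either. Its log2 difference was -1.35 (SE 0.240), or 39.4% of the control level. The 2 probe sets ranked the arrays alike at both ends, with control 1 highest and Mest-KO 1 lowest, and their Pearson correlation over the 6 arrays was 0.98, of which the group difference is a large part. With each array set against its own group mean, it was 0.92. In the same way the second probe set correlated at 0.997 with Muc15, so a high value is not particular to probe sets of the same gene.

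The third probe set of Plet1 (1423934_at) gave a signal too dim to compare. It read 2.90, 22.1 and 16.8 in control and 12.4, 5.98 and 8.15 in Mest-KO, below the intensity of 34.4 that a gene's brightest probe set had to exceed on average to be tested. Its group values overlapped, and its difference of -0.46 had a standard error of 1.07. That difference ran from -1.54 without control replicate 1 to 0.20 without control replicate 2. With each array set against its own group mean, the dim probe set correlated at -0.83 with the brightest and -0.84 with the second. Plet1 is therefore described from 2 probe sets that gave like values, and the dim one gives no direction. The mean of all 3 gives a log2 difference of -1.07.

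Muc15, the membrane mucin of the pair that was lower in Mest-KO, had a single probe set (1426941_at). Its intensity was 1206, 925 and 818 on the control arrays. On the Mest-KO arrays it was 351, 530 and 524. All Mest-KO arrays lay below all controls. The means were 983 ± 200.5 (SD, n = 3) in control and 468 ± 101.4 (SD, n = 3) in Mest-KO, and the log2 difference was -1.09 (SE 0.241), or 47.1% of control (2.12-fold lower, 95% interval from 1.39 to 3.24). Mest-KO 1 stood lowest and control 1 highest, as for Plet1, so the difference was smallest without Mest-KO replicate 1, at -0.89.

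Scara3 was also read by 1 probe set (1427020_at). It gave 782, 608 and 531 in control. In Mest-KO it gave 317, 304 and 368. The groups did not overlap, and control 1 was again the highest array, while Mest-KO 2 rather than Mest-KO 1 was the lowest. The means were 641 ± 128 (SD, n = 3) and 330 ± 33.6 (SD, n = 3), with a log2 difference of -0.98 (SE 0.181). Mest-KO therefore stood at 50.8% of control, 1.97-fold lower with a 95% interval from 1.43 to 2.70.

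Muc1, the best known transmembrane mucin, overlapped between the groups. Its probe set (1449199_at) was dim, with 77.1, 46.8 and 32.7 in control and 45.7, 56.8 and 77.7 in Mest-KO. The highest and the lowest value of the 6 fell in Mest-KO 3 and control 3, and the remaining arrays of both groups were interleaved. The means were 52.2 ± 22.7 (SD, n = 3) and 60.1 ± 16.3 (SD, n = 3). The log2 difference was 0.08 (SE 0.314), with a 95% interval from -0.72 to 0.87, which still allows a level 1.64-fold lower in Mest-KO. Its sign turned without control replicate 3, to -0.22. The level was above the filter on dim genes, but only 6.62% of the genes tested had a lower mean, and the standard error was the largest among the brightest probe sets of the 4 genes.

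**Figure D1:**
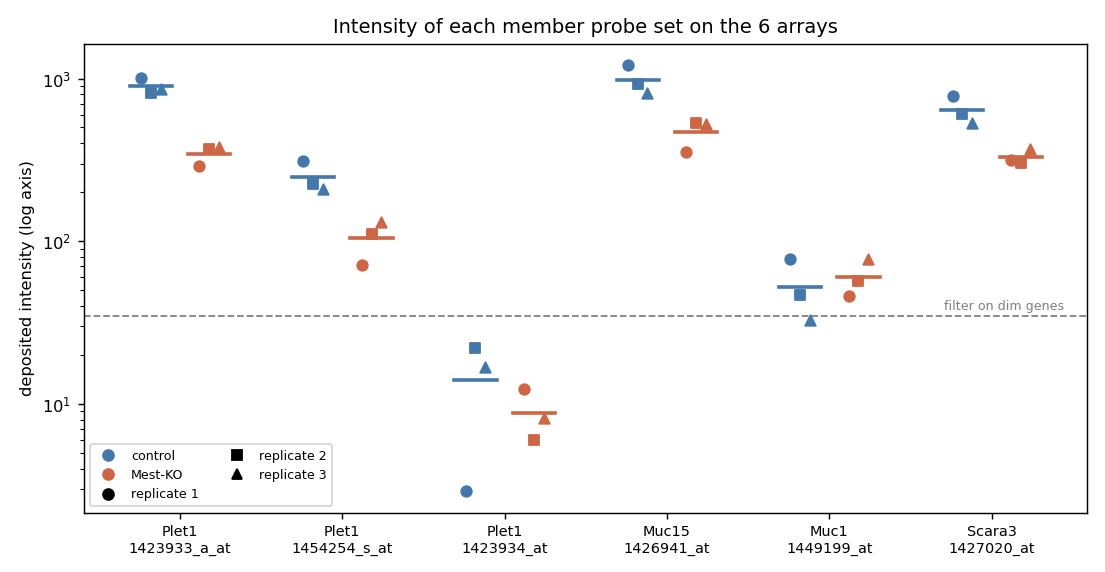
Deposited intensity (log axis) of the 6 probe sets of the members on each array, with control in blue, Mest-KO in orange, marker shapes for replicates 1 to 3, a bar at each group's mean and a dashed line at the filter of 34.4. The brighter 2 probe sets of Plet1 and those of Muc15 and Scara3 have all Mest-KO points below all control points, while Muc1 and the dim Plet1 probe set overlap.

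Groups did not overlap, with Mest-KO lower, for 3 of the 4 genes, and this held for 729 of the 12462 genes tested (5.85%). By probe set the counts were 4 of 6 members and 2108 of 45037 probe sets (4.68%), no filter applied. Because the choice of members used this comparison, nothing is read from these shares. Ordered by log2 difference from the most negative, Plet1 stood at rank 12, Muc15 at 31 and Scara3 at 48, and Muc1 at 8853, of 12462 genes.

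The groups of the 3 lower genes did not overlap, so leaving out an array could change little but the size of the difference. Plet1 ranged from -1.48 to -1.28 at its brightest probe set, Muc15 from -1.20 to -0.89 and Scara3 from -1.10 to -0.83. Some arrays stood apart. Mest-KO 3 was far from the others on the first principal component, at 36.4 against -10.3 to -1.77, and without it the differences were -1.48, -1.18 and -1.06. Judged by Xist and Eif2s3y, Mest-KO 1 held male embryos and control 2 female embryos, while the other 4 pools held both sexes. Between those 4 pools, Plet1 differed by -1.32, Muc15 by -0.91 and Scara3 by -0.96. The probe set of Tbx1 itself read 910, 704 and 713 in Mest-KO and 898, 690 and 766 in control. The labels cannot be checked by it, since T-Cre acts outside the vesicle and where the probe set lies in the gene is not stated.

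**Figure D2:**
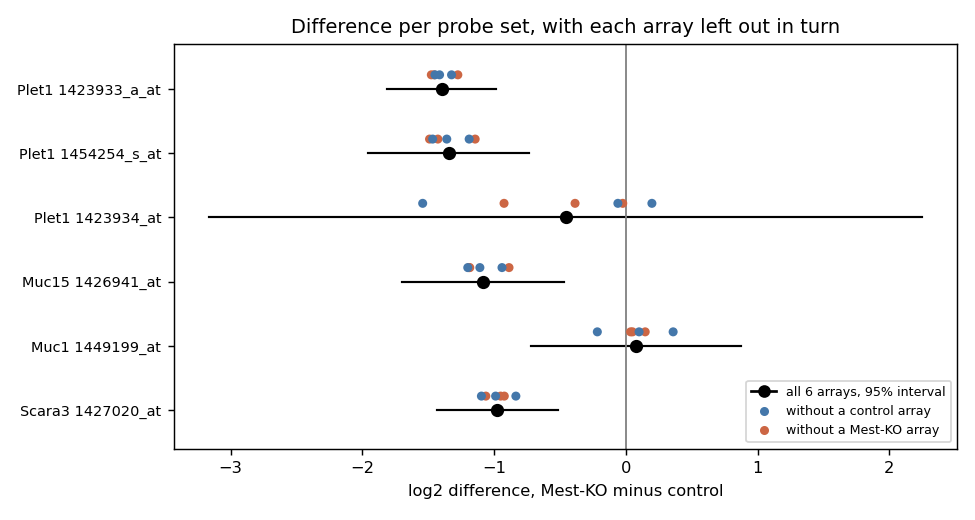
Log2 difference (Mest-KO minus control) of each probe set with its 95% interval in black, and above it the same difference with each array left out in turn, blue for a control array and orange for a Mest-KO array. Plet1 at its brighter 2 probe sets, Muc15 and Scara3 stay below 0 throughout, whereas the dim Plet1 probe set and Muc1 have points on both sides of 0.

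Plet1 and Muc15 also varied alike inside the groups. With each array set against its group mean, Plet1 (brightest probe set) and Muc15 correlated at 0.93 over the 6 arrays, Plet1 and Scara3 at 0.50 and Muc15 and Scara3 at 0.64. These are descriptions over 6 arrays with 4 independent deviations, and the values on an array share its RNA pool, labelling and scaling. Control 1 was the highest of the controls for Muc1 as well. In the same way Muc1, which was not lower, correlated at 0.87 with Scara3, 0.74 with Muc15 and 0.50 with Plet1 (brightest probe set).

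The other mucins and mucin-like proteins that were tested did not lean one way. Of 26 listed, 21 had a named probe set and 9 were bright enough to be tested. None of the 9 passed, with either variance prior, against 0% and 0.104% of all genes. Their median log2 difference was -0.01, where all genes tested had -0.00, and 5 were lower and 4 higher. With median centring 6 were lower and the median was -0.16, where all genes had -0.14. None of the tested 9 bears the Muc symbol: Muc2, Muc3, Muc4, Muc5ac, Muc5b, Muc13, Muc16 and Muc20 were all below the filter. At these dim signals Muc13 (-0.04, SE 1.06) and Muc20 (-1.07, SE 0.891) were lower. The others were higher, among them Muc2 (0.80, SE 0.293) and Muc4 (1.60, SE 0.538). Parm1, a mucin-like membrane protein gene, stood at 1771, 1492 and 1540 in control and at 1156, 1171 and 1372 in Mest-KO (log2 difference -0.38, SE 0.116, limma adjusted p = 0.909). Mcam, an adhesion molecule also counted among the mucins, leaned the other way, with 542, 563 and 555 in control and 766, 687 and 663 in Mest-KO (0.34, SE 0.0876, limma adjusted p = 0.777). Neither gene overlapped between the groups. Ovgp1, a secreted glycoprotein gene of the oviduct, differed by -0.23 (SE 0.186) with overlapping values.

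Enzymes that build the O-glycans of mucins moved little. Of 31 listed, 19 were tested and 0 passed with either prior, and none had an unadjusted p under 0.05. Their differences lay between -0.15 and 0.26, with a median of 0.03, or -0.08 where arrays were centred on their medians, a scaling that moved the median of all genes to -0.14. Galnt2, which attaches the first sugar, had -0.15 (SE 0.105) and its relative Galnt1 0.07 (SE 0.0765). St3gal1, which caps core chains with sialic acid, had 0.26 (SE 0.155).

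Among scavenger receptors, the family that Scara3 is named after, 11 of 22 listed genes were tested, and 0 passed with either prior. The median was 0.03, or -0.06 with median centring, with 6 genes higher and 5 lower. Ager, a receptor for glycated proteins, had -0.41 (SE 0.159, limma adjusted p = 0.909). Lrp1, a large endocytic receptor, had 0.33 (SE 0.152) and Megf10, an engulfment receptor, 0.28 (SE 0.180). The other class A receptors on the array were looked at after their values were seen, and they did not share a direction. Colec12, which was tested, had 0.20 (SE 0.348), while Marco (0.27, SE 0.814), Msr1 (-0.35, SE 0.326) and Scara5 (-1.41, SE 0.524) were below the filter. Scara5 read 75.0, 32.2 and 42.5 in control and 16.5, 30.9 and 15.3 in Mest-KO.

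After quantile normalization, genes of the epithelial surface and its junctions lay close to control. Of 50 listed, 47 were tested, 19 higher and 28 lower, with a median of -0.02. None was past the threshold with either prior or at an unadjusted p under 0.05. With the deposited scaling alone 30 were lower (median -0.03). With median centring 36 were lower (median -0.18), where the median of all genes was -0.14. Epcam, an adhesion molecule of epithelia, read 7259, 7849 and 7251 in control and 7733, 6161 and 6485 in Mest-KO, and Cdh1, which encodes E-cadherin, differed by -0.03. The keratin genes Krt8 and Krt18 had -0.20 (SE 0.0960) and -0.21 (SE 0.103), and Spint1, a membrane-bound protease inhibitor gene, had -0.16 (SE 0.0817). These 3 did not overlap between groups. In the whole list 5 of 47 genes were lower without overlap, Dsp and Prss8 being the others, against 5.85% of all genes tested. Ddr1 alone was higher without overlap, a direction not counted over all genes. The differences of Krt8, Krt18 and Spint1 were a small part of those of Plet1, Muc15 and Scara3.

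Among other proteins attached to the membrane by a GPI anchor, 45 of 71 were tested and 0 passed with either prior. The median was -0.06, with 30 genes lower and 15 higher, though with the deposited scaling alone 23 were lower and the median was -0.01. Ntng1, which encodes the axon guidance protein netrin-G1, came nearest to the members in size. Its intensities were 212, 197 and 208 in control and 75.0, 132 and 113 in Mest-KO, and the groups did not overlap. The log2 difference was -1.08 (SE 0.188, limma adjusted p = 0.528, or 0.162 with the prior that follows level). Lypd1, of the Ly6 family, had -0.75 (SE 0.195) and the contactin gene Cntn6 -0.60 (SE 0.195), both dim.

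Oxidative stress genes, listed because of Scara3, numbered 31 tested of 36 listed, and 0 passed with either prior. After quantile normalization 15 were higher and 16 lower, with a median of -0.01, but 20 were lower with the deposited scaling alone and 26 with median centring (medians of -0.03 and -0.18). Gstm1, a glutathione transferase gene, had -0.32 (SE 0.111), Prdx3, a mitochondrial peroxiredoxin gene, -0.29 (SE 0.110), and the metallothionein gene Mt1 0.27 (SE 0.0895). All 3 had a limma adjusted p of 0.909.

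**Figure D3:**
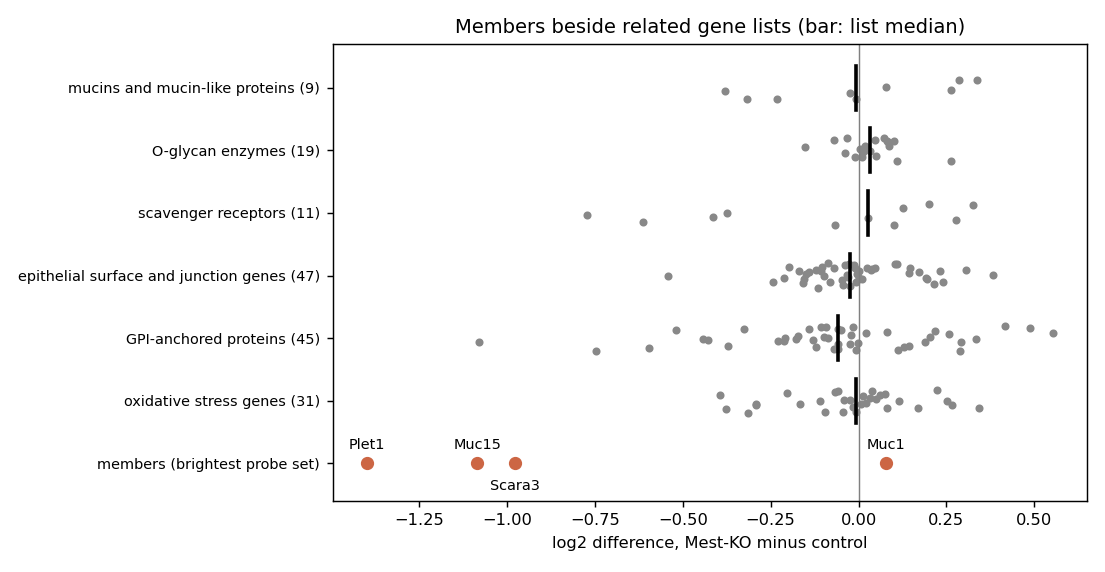
Log2 differences (Mest-KO minus control) of the tested genes of 6 related lists as grey points, with the number tested in brackets and a bar at the list median, above the 4 members in orange. List medians lie between -0.06 and 0.03, and 1 listed gene (Ntng1, -1.08) lies below -0.90, the region where Plet1, Muc15 and Scara3 lie.

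Markers of the vesicle and of other tissues that a dissection can carry are given beside these results, and their part in the differences was not tested. Of 16 otic epithelium markers 15 were on the array and all 15 exceeded the filter, with a summed intensity of 43098 to 44072 in control and 40428 to 43675 in Mest-KO, ranges that overlap. Of 12 markers of surface and pharyngeal epithelium, 10 were on the array and 5 exceeded the filter (Krt5, Krt14, Krt17, Nkx2-1 and Grhl3 did not). Their sum was 1936 to 2237 in control and 1958 to 2882 in Mest-KO. Mesenchyme markers, 14 of 14, summed to 3960 to 7200 in control and 3969 to 8286 in Mest-KO. Lum, a matrix proteoglycan gene of this list, was lower without overlap, at -0.48 (SE 0.123, limma adjusted p = 0.777) where the list median was 0.38. The mean log2 level of the mesenchyme markers was 8.36, 7.92 and 7.28 in control and 7.33, 8.74 and 8.21 in Mest-KO, and the groups overlapped. Muc15 had the same order of arrays within each group, but Plet1 and Scara3 did not. The endothelial markers and the list of mucins and mucin-like proteins had that order too, so nothing is read from it.

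Macrophage markers, with 5 of 10 above the filter, summed to 322 to 917 in control and 358 to 577 in Mest-KO. All 5 above the filter were lower on the normalized scale in Mest-KO (4 of 5 with the deposited scaling alone). Their median log2 difference was -0.30, with 0 past the threshold and overlapping values. The markers below the filter, which the sums include, were mixed. C1qa (1.29, SE 0.590), C1qc (0.94, SE 1.73) and Ptprc (0.18, SE 0.353) were higher, and Csf1r (-1.46, SE 1.56) and Aif1 (-0.92, SE 1.16) lower. Fcer1g, an immune receptor subunit gene, had -0.86 (SE 0.362) and its partner adaptor Tyrobp -0.65 (SE 0.582). Their mean log2 level was 7.01 in control 1 against 5.80 to 6.24 in the other controls, so control 1 was on top as for the members, while the lowest Mest-KO array was replicate 3. Endothelial markers, 4 of 10 above the filter, summed to 524 to 627 in control and 532 to 792 in Mest-KO. All 4 above the filter were higher in Mest-KO, with each scaling. Their median log2 difference was 0.23, with 0 past the threshold and overlapping values. Of those below the filter, Esam (-0.66, SE 0.373) was lower and the others higher, among them Pecam1 (1.49, SE 0.282). Red blood cell markers, 6 of 7 on the array, summed to 25270 to 28343 in control and 24197 to 27803 in Mest-KO, with the highest mean log2 level, 10.4, in control 1. Neuroblast and ganglion markers, 9 of 9, summed to 7815 to 8557 in control and 8307 to 8962 in Mest-KO. In all 7 marker lists the summed ranges of the groups overlapped. By mean log2 level the neuroblast markers did not, with 8.53 to 8.71 in control and 8.75 to 8.92 in Mest-KO. Of these markers 5 were higher and 4 lower, with a median log2 difference of 0.12. Of that list Insm1, a zinc finger gene of newly formed neurons, had 1.04 (SE 0.217), a difference close in size to that of Muc15 in the other direction, Neurod1, a neurogenic transcription factor gene, 0.57 (SE 0.144) and Elavl3, a neuronal RNA-binding protein gene, 0.38 (SE 0.121). These 3 did not overlap between the groups, and their limma adjusted p were 0.622, 0.777 and 0.909. How many of all genes were higher without overlap was not counted, so nothing is read from these 3. None of the markers passed the threshold with either prior, and 0 of them were at 0 on every array.

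Genes whose profile over the 6 arrays was most like that of each member were found by Pearson correlation with its brightest probe set among the genes tested. This is a description: the 6 arrays fall into 2 groups, so any gene with a clean group difference correlates highly, whatever its size. For Plet1 the nearest were Clu, which encodes the secreted chaperone clusterin (r = 0.998), Moxd1 (0.997), the hyaluronan-associated Itih5 (0.99), Nelfe (0.99) and Rapgef5 (0.98), and 44 genes exceeded 0.95. All 5 were lower in Mest-KO, by log2 differences of -2.32, -0.61, -1.21, -0.15 and -0.41. The intensity of Clu was 7997, 6484 and 6444 in control and 1060, 1442 and 1717 in Mest-KO, with Mest-KO 1 lowest and control 1 highest, as at Plet1.

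For Muc15 the nearest were Pgm5 (0.99), Dlgap5 (0.99), Tpcn2 (0.99), Pxdc1 (0.99) and Sec24c (0.98), with 33 genes above 0.95. Pxdc1 had a difference of like size, -1.03, and Pgm5 one of -0.84, while that of Sec24c was -0.10. For Scara3 they were Gdnf, a neurotrophic factor gene (0.99), the carbonic anhydrase gene Car13 (0.99), the guidance gene Sema3e (0.98), Guk1 (0.98) and again Sec24c (0.98), with 32 above 0.95. Gdnf was dim, with 100.6, 65.3 and 68.2 in control and 29.9, 31.8 and 55.5 in Mest-KO, and Car13 differed by -0.86. For Muc1, whose groups overlapped, the nearest were Rangap1 (0.99), Zfp58 (0.99), Jam2 (0.98), Stn1 (0.98) and Tmem160 (0.98), with differences between 0.00 and 0.20. Limma without the trend called 0 of all genes, so none of those named in these 2 paragraphs passed it. With the trend Clu passed (limma adjusted p = 8.4e-05), and the others' results with it are not given here.

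**Figure D4:**
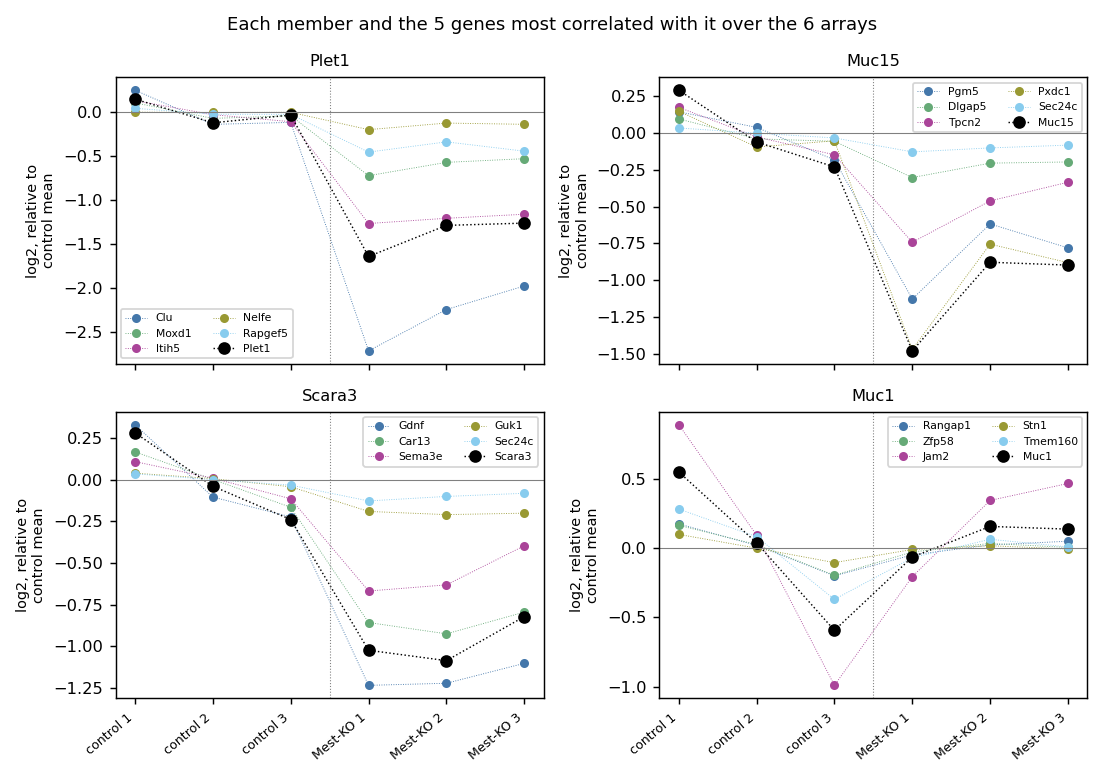
Log2 level relative to the control mean (vertical axis) on the 6 arrays (horizontal axis) for each member in black and the 5 genes most correlated with it in colour, with a dotted line between the groups and dotted lines that only link the points of a gene. Plet1, Muc15 and Scara3 and the genes like them are lower on every Mest-KO array, whereas Muc1 and the genes like it vary mostly inside the control group.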

How the data were processed

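Gene expression in 6 RNA pools was measured on Affymetrix mouse arrays. The deposited values are linear intensities, 1 per probe set. Per the submitters' processing notes, the authors used Affymetrix Expression Console 1.1, and the values have a trimmed mean of 500 on each array with 2% trimmed from each end. How probes were summarised and background removed is not stated, and no detection calls came with the values. Of 45101 probe sets, 64 controls were left out. Symbols came from the platform annotation, probe sets with several symbols were not named, and symbols were updated through RefSeq identifiers.

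Intensities were floored at 1, taken to log2 and quantile normalized. The brightest probe set stood for a gene, and the 12462 genes brighter than the 40th percentile of the probe sets were tested by limma 3.58.1 (R 4.3.3, lmFit and eBayes, no trend) with Benjamini-Hochberg adjustment at 0.05. Standard errors of the members come from the same fit over all probe sets without a filter. Only the limma fit was tested on simulated data, and the steps before it were not. The number of arrays limits the precision. Whether the replicates came from separate litters is not stated.

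The members and gene lists were chosen with earlier results of these data known. The named genes are every probe set of the members, the 3 genes of each list with the smallest unadjusted p and any called with the trend, the 5 genes most correlated with each member, and Xist and Eif2s3y. Genes outside it, Tbx1, Clu as a neighbour, the class A scavenger receptors, Dsp, Prss8, Ddr1, Epcam, Cdh1, the dim mucins and the dim macrophage and endothelial markers, were added after their values were seen. Of the cell type marker lists, only some genes within the rule are named. Figures were drawn with matplotlib 3.10.9.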

Additional observations from a re-analysis of the deposited data

How the results depend on the processing

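The trend combined with each array left out or with the block was chosen after seeing the data. Unless a cause is given, the cause was not tested. The count of genes past the threshold, 0 in the main setting, was 25 with median centring (4 higher, 21 lower, with Plet1, Muc15 and Scara3 among them), 13 with the trend, 7 where genes under the 60th percentile were left out, so that fewer were tested, 1 with the most variable probe set of each gene, 7 with the trend between the 4 pools of both sexes and 8 with the trend and the replicate block. With the trend it was 15, 9 and 17 without Mest-KO replicates 1, 2 and 3, and 6, 7 and 9 without control replicates 1, 2 and 3. It was 0 with the deposited scaling alone, a floor at 16, no filter, array weights, the mean of probe sets, any array left out and the 4 pools without the trend. Of genes at an unadjusted p under 0.05, 56.6% were lower in Mest-KO, against 38.7% with the deposited scaling and 68.2% with median centring. Plet1 moved from -1.40 to -1.07 with the mean of its probe sets and to -0.46 at its dim probe set. No other setting moved a member by more than the spread between replicates. Deviations of same-numbered arrays correlated at -0.11, -0.01 and -0.01, and those of the other pairs at -0.10 to 0.11. With so few arrays, these values cannot tell whether the replicate numbers pair the arrays. With the replicate block the count stayed at 0 and the standard error of Plet1 rose to 0.202. The dim signals limit Muc1 and the third probe set of Plet1.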

Other observations

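The genes beside each member in the genome were looked at after the values of the members had been seen, with the order of protein-coding genes taken from RefSeq on GRCm38.p6 and 3 genes on each side. Scara3 has Clu as its next protein-coding gene on one side, and both were lower in Mest-KO, Clu by a log2 difference of -2.32 (SE 0.242) at its brightest probe set and by -2.21 to -2.42 over all 4 of its probe sets. The tested genes around the pair lay closer to 0. On the other side of Scara3, Ccdc25 differed by -0.25 (SE 0.256), Esco2 by -0.06 (SE 0.134) and Pbk by -0.11 (SE 0.114). Beyond Clu, Gulo (-0.17, SE 0.839) and Adam2 (-0.83, SE 1.04) were below the filter. Whether the neighbourhood has a part in the values was not tested.

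Around Plet1, Pts differed by -0.21 (SE 0.144), Il18 by -0.31 (SE 0.364), Ncam1 by 0.12 (SE 0.170) and Ttc12 by 0.13 (SE 0.206). Muc15 lies inside the span of Ano3, a gene of the anoctamin family, whose brightest probe set was below the filter, with a mean of 14.4 in control and 19.4 in Mest-KO. Around Muc1, Thbs3 differed by -0.16 (SE 0.198), Trim46 by -0.05 (SE 0.246), Mtx1 by -0.26 (SE 0.223) and Krtcap2 by -0.21 (SE 0.113). Other neighbours below the filter were Bco2 by Plet1 (0.52, SE 0.740) and Dpm3 by Muc1 (0.99, SE 0.918). By Muc15 they were Slc5a12 (-0.51, SE 0.614) and A26c3 (-0.09, SE 1.45). Limma without the trend called 0 genes, so no tested neighbour passed it, and Clu passed with the trend (limma adjusted p = 8.4e-05).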
